A study of Homo sapiens with 16 samples.

Results

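The interferon regulatory factors are a family of transcription factors, and 8 of them are described here, IRF1, IRF2, IRF3, IRF4, IRF5, IRF7, IRF8 and IRF9. The family was chosen by its count levels and log2 folds between the groups in earlier results of these data, where members lay on opposite sides, and its members were taken by name. Those values are therefore a description with no test. Of the 8 factors, 6 had a row among the 18093 rows of the count table (IRF1, IRF2, IRF3, IRF4, IRF5 and IRF8), and 3 had a local splicing variation (IRF1, IRF3 and IRF7). Expression of IRF7 and IRF9 is not analysed here, and IRF9 had neither kind of value. All RNA came from wild-type HL60 cells, a single human acute promyelocytic leukaemia line. Cultures received SY-351, which inhibits CDK7, at 50 nM for 5 h, or the solvent alone (DMSO), with 4 replicates in each group. Each replicate was recorded as 2 technical repeats, which makes 16 records and 8 count columns. CDK7 is the kinase of the general transcription factor TFIIH, and the study looked at transcription, splicing and termination when it is inhibited.

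The factors share a DNA-binding domain that reads the interferon-stimulated response element, a tandem GAAA-like repeat in the promoters of antiviral genes. IRF3 and IRF7 are activated by viral nucleic acid sensors and switch on interferon genes, IRF9 joins STAT proteins in the complex that answers interferon, and IRF1 activates and IRF2 mostly represses many of the same targets. IRF4 and IRF8 bind weakly alone and act with partners such as PU.1 and BATF, IRF8 in monocytes, dendritic cells and B cells, IRF4 in activated lymphocytes and plasma cells.

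The SY-351 libraries held 43266228 to 77891776 counts and the DMSO libraries 103676557 to 124242039 counts. DMSO 1 and DMSO 2 stood apart from all other libraries, with a correlation over genes of log2 CPM (counts scaled to a common library total) of 0.727 to 0.794 with the other 6 against 0.983 with each other. Results are therefore also given without them. The TMM factors, which correct each total for composition, were 1.02 to 1.07 for SY-351, 0.661 and 0.657 for DMSO 1 and 2, and 1.61 and 1.21 for DMSO 3 and 4. MPO, which encodes myeloperoxidase and marks promyelocytes, measured 28300 to 32700 CPM in SY-351 and in DMSO 12100 to 48100 CPM, and the 6 of 10 promyelocyte markers with a row summed to 36700 to 41500 CPM in SY-351 and 15200 to 49600 CPM in DMSO, a sum that MPO dominates. Among the other 5 markers, SRGN, LYZ, CTSG and CD33 did not follow MPO in DMSO 1 and 2, whereas CEBPE, like MPO, was highest there. SRGN, the granule proteoglycan gene, measured 3280 to 3790 CPM in SY-351, against 19.4 to 25.1 CPM in DMSO 1 and 2 and 1380 to 2030 CPM in DMSO 3 and 4. LYZ, CTSG and CD33 were likewise lowest in DMSO 1 and 2, at 227 to 576, 19.4 to 83.9 and 3.1 to 5.64 CPM. CEBPE, a granulocyte transcription factor gene, measured 66.4 to 74.9 CPM in SY-351, against 1260 to 1330 CPM in DMSO 1 and 2 and 159 to 209 CPM in DMSO 3 and 4.

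IRF4 was the factor with the higher level in SY-351. It lies at chr6:391751-411443 on the plus strand of GRCh38 (coordinates as in the count table, whose starts lie 1 base before the annotated ones). It measured 134, 126, 146 and 170 CPM in SY-351 replicates 1 to 4, against 0.226, 0.103, 5.76 and 5.90 CPM in DMSO replicates 1 to 4. All 4 SY-351 libraries lay above all 4 DMSO libraries, and within DMSO replicates 3 and 4 lay above replicates 1 and 2. As raw counts over the gene, these values were 10589, 10442, 9580 and 7534 in SY-351 and 16, 7, 1149 and 833 in DMSO. The log2 fold (SY-351 over DMSO, edgeR) was 5.58 ± 1.31 (SE) over all 8 libraries and 4.65 ± 0.21 without DMSO 1 and 2. On the mean CPM, SY-351 was 24.7-fold above DMSO 3 and 4. In RNA from a whole culture, more RNA in each cell and more cells that hold it cannot be told apart. CPM and log2 folds are also relative to the other RNA of a library, so absolute amounts were not measured. Words such as rose and fell are used below in this relative sense.

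IRF1, an activator of interferon-stimulated and antigen presentation genes, lay on the other side. It lies at chr5:132481608-132490773 on the minus strand. It measured 5.31, 4.89, 4.95 and 4.91 CPM in SY-351 replicates 1 to 4, against 52.5, 71.7, 20.0 and 28.4 CPM in DMSO replicates 1 to 4. The SY-351 values lay close together, with a coefficient of variation of 4.0%, and all were below the lowest DMSO value. The log2 fold was -3.11 ± 0.44 (SE) over all 8 libraries and -2.25 ± 0.17 without DMSO 1 and 2, where the SY-351 mean was 20.7% of the DMSO mean. Scaled by total counts alone, IRF1 measured 5.04 to 5.40 CPM in SY-351 and 32.1 to 47.1 CPM in DMSO, a narrower DMSO range than with TMM scaling.

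The promoters of these opposite members are shown to set their letters side by side. Each line is the 250 bases before the RefSeq start site (GRCh38.p14), 5′ to 3′ on the gene's strand, chr5:132490774-132491023 on the minus strand for IRF1 and chr6:391502-391751 on the plus strand for IRF4, with capitals at the motif matches.
IRF1 promoter: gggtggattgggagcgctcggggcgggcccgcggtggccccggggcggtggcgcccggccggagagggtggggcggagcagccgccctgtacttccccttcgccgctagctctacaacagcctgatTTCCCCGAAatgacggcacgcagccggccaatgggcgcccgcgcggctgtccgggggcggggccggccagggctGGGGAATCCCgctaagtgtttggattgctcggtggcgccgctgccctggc
IRF4 promoter: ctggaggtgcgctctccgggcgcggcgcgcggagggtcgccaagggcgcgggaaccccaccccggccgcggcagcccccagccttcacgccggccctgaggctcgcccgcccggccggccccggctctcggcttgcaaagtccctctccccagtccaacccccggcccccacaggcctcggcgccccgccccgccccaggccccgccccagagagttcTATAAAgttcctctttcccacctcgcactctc
The capitals in IRF1 mark a STAT-binding GAS element, TTCNNNGAA, that begins 124 bases before the start, and an NF-kB consensus match that begins 50 bases before it. The capitals in IRF4 mark the TATA box letters TATAAA, which begin 32 bases before the start. The matches do not overlap. Both strands of the window from 250 bases before to 50 after the start were searched for GAS, TATAAA, the NF-kB consensus, the core of the interferon-stimulated response element and the cyclic AMP element TGACGTCA. Of 35116 such windows in RefSeq, 7.66% held the GAS letters, 11.3% the NF-kB consensus, 11.5% TATAAA, 3.57% the response element core and 1.85% the cyclic AMP element. The response element core and the cyclic AMP element are in neither window. The GC content was 73.7% for IRF1 and 74.0% for IRF4, against a median of 58.7% over all windows, so both promoters are GC-rich. Of the 8 factors, 5 matched a promoter entry. The windows listed for IRF5 and IRF8 had a GC content of 55.0% to 76.0%. The motif letters were not particular to IRF1 and IRF4. An IRF5 window held TATAAA from 188 bases before its start, and the IRF9 window held the GAS letters from 63 bases before its start.

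The counts of IRF4 for each count of IRF1 put both members on a scale that needs no library scaling. This ratio was 25.2, 25.8, 29.5 and 34.6 in SY-351 replicates 1 to 4, against 0.0043, 0.00143, 0.288 and 0.208 in DMSO replicates 1 to 4. IRF4 outnumbered IRF1 in all 4 SY-351 libraries and IRF1 outnumbered IRF4 in all 4 DMSO libraries. Of the counts of the 6 factors together, IRF4 held 62.8%, 61.6%, 64.7% and 68.7% in SY-351, against 0.0641%, 0.0306%, 5.14% and 4.03% in DMSO. IRF3 held the largest share in every DMSO library, 70.9%, 63.5%, 50.4% and 50.0%, and 23.8% to 29.8% in SY-351. The ratio of IRF4 to its closest relative IRF8 was 97.6 to 150 in SY-351, against 0.0115 to 2.08 in DMSO. IRF8 outnumbered IRF4 in DMSO 1 and 2 and IRF4 outnumbered IRF8 in DMSO 3 and 4, so this order within DMSO depends on the library.

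**Figure D1:**
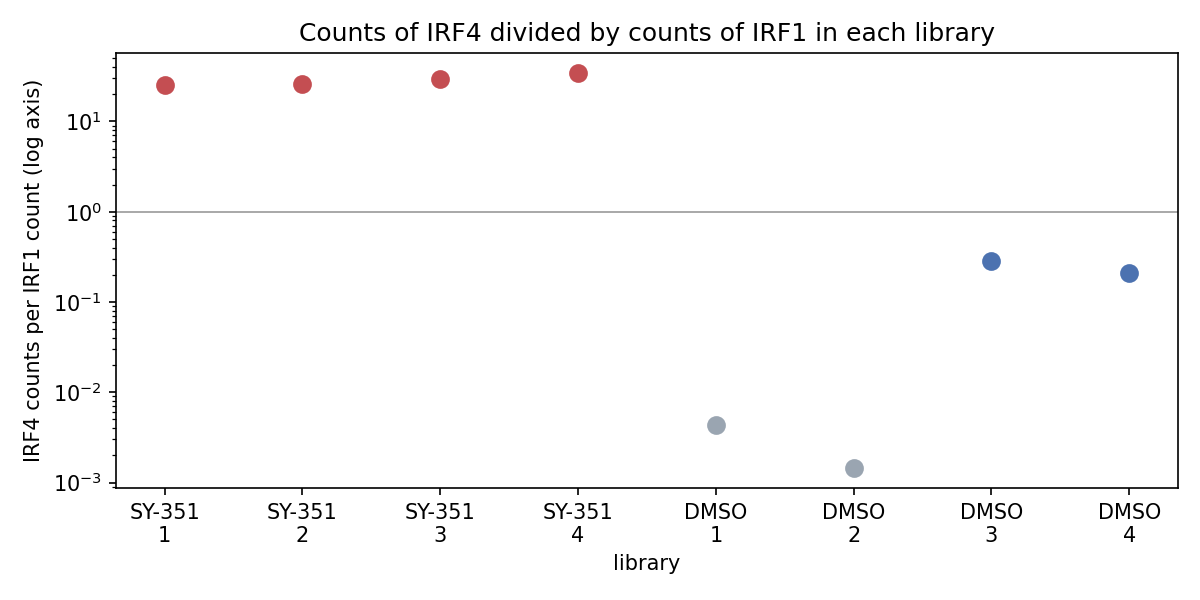
Counts of IRF4 divided by counts of IRF1 in each of the 8 libraries (log axis; grey line at 1; SY-351 red, DMSO 1 and 2 grey, DMSO 3 and 4 blue). The SY-351 libraries lie at 25.2 to 34.6 and the DMSO libraries at 0.00143 to 0.288, with DMSO 1 and 2 below DMSO 3 and 4.

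IRF2, the mostly repressing counterpart of IRF1 (chr4:184387729-184474550, minus strand), measured 4.82, 5.30, 5.21 and 6.35 CPM in SY-351, against 2.09, 2.41, 18.4 and 23.6 CPM in DMSO. The SY-351 values lay between the DMSO values, above replicates 1 and 2 and below replicates 3 and 4. Its log2 fold was -1.10 ± 0.78 (SE) over all 8 libraries, -1.93 ± 0.17 without DMSO 1 and 2 and 1.12 ± 0.19 against DMSO 1 and 2 alone, so its direction depends on which controls are used.

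IRF3, the constitutively present factor that nucleic acid sensors activate by phosphorylation (chr19:49659571-49665857, minus strand), measured 62.0, 61.2, 61.7 and 58.8 CPM in SY-351, against 250, 213, 56.6 and 73.3 CPM in DMSO. The SY-351 values lay within the range of DMSO 3 and 4 and below DMSO 1 and 2. Its log2 fold was -1.28 ± 0.50 (SE) over all 8 libraries and -0.07 ± 0.16 without DMSO 1 and 2. Under total count scaling without DMSO 1 and 2 it was -0.50 ± 0.06, a setting in which the median gene measured -0.45.

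IRF5, a factor of Toll-like receptor signalling in myeloid cells (chr7:128937031-128950038, plus strand), measured 5.78, 6.24, 6.68 and 5.90 CPM in SY-351, against 38.6, 39.3, 8.62 and 11.8 CPM in DMSO. All SY-351 values were below all DMSO values, by the smallest margin against DMSO 3. Its log2 fold was -2.0 ± 0.54 (SE) over all 8 libraries and -0.71 ± 0.19 without DMSO 1 and 2.

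IRF8, a determinant of monocyte and dendritic cell fate (chr16:85899161-85922605, plus strand), measured 1.15, 1.29, 0.974 and 1.42 CPM in SY-351, against 9.28, 8.93, 2.77 and 3.49 CPM in DMSO. These SY-351 values rest on 63 to 107 counts for each library, and none reached the DMSO range. Its log2 fold was -2.34 ± 0.48 (SE) over all 8 libraries and -1.35 ± 0.29 without DMSO 1 and 2.

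**Figure D2:**
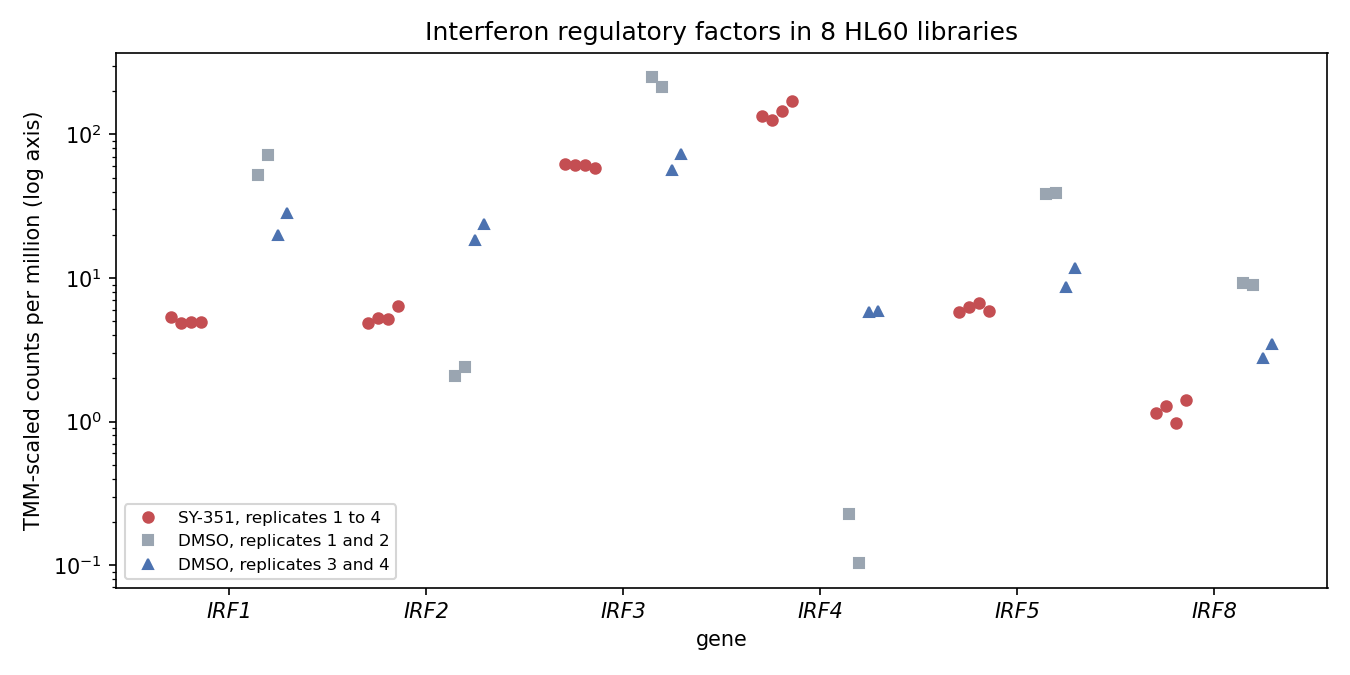
TMM-scaled CPM (log axis) of the 6 factors with a count row, 1 point per library, SY-351 left of DMSO for each gene. SY-351 lies above every DMSO library for IRF4 (126 to 170 against 0.103 to 5.90 CPM), below every DMSO library for IRF1, IRF5 and IRF8, and overlaps DMSO for IRF2 and IRF3.

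Over all 8 libraries, 3 of the 6 factors had an adjusted p below 0.05 and a lower level in SY-351 (IRF1, IRF5 and IRF8), where 13.6% of the 15472 genes tested did, and 1 of the 6 had a higher level (IRF4), where 2.91% of genes did. Without DMSO 1 and 2, 4 of the 6 were lower (IRF2 in addition), where 26.4% of 15811 genes were, and IRF4 was higher, where 21.9% of genes were. The groups did not overlap for 4 of the 6 factors, and 33.7% of all genes tested showed no overlap. Since this contrast chose the family, nothing is read from these counts. With any 1 of the 4 SY-351 libraries left out, 1 factor (IRF1) was lower and 0 were higher by edgeR, and total count scaling gave 4 lower and 0 higher. Set against DMSO 1 and 2 alone, 4 factors were lower and 2 factors higher, where 38.4% of all genes were lower, 40.8% higher and 79.2% either, and the log2 folds were -3.77 ± 0.13 (SE) for IRF1 and 9.61 ± 0.29 for IRF4, both farther from 0 than over all 8 libraries.

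**Figure D3:**
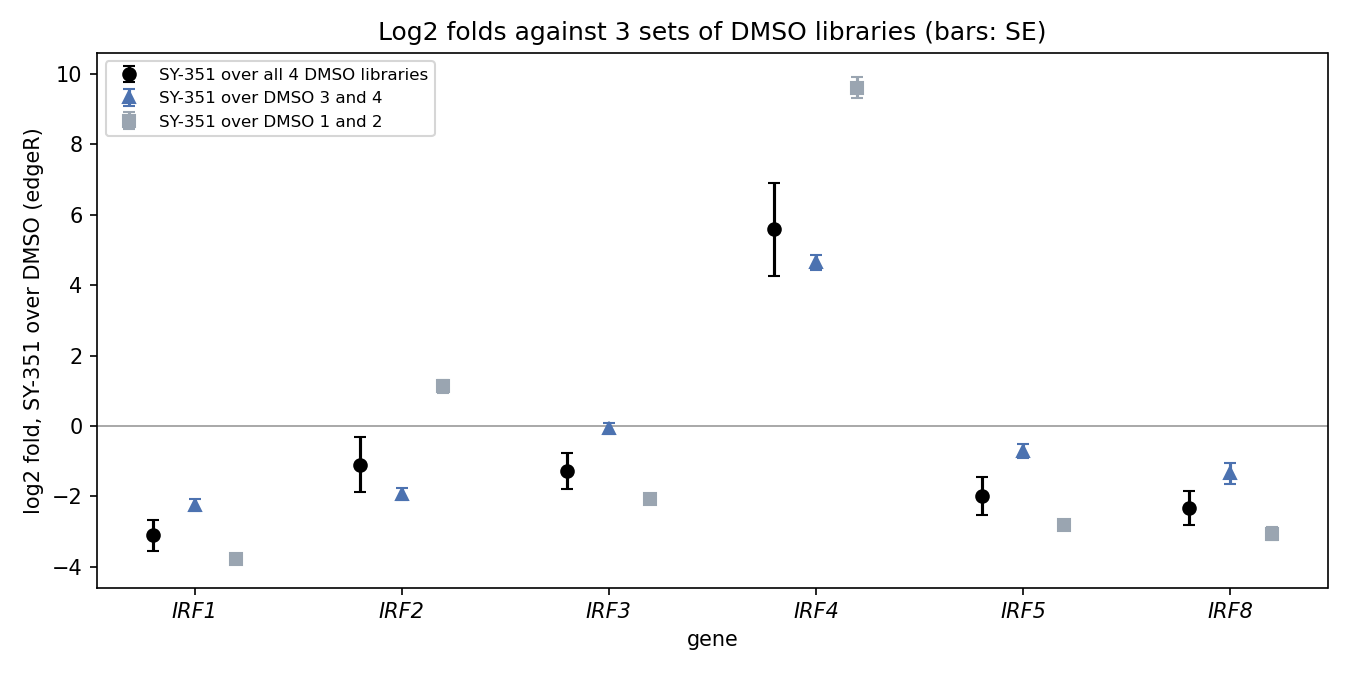
Log2 fold of SY-351 over DMSO (edgeR, bars are SE) for the 6 factors against all 4 DMSO libraries, DMSO 3 and 4, or DMSO 1 and 2. The sign is the same against all 3 control sets for each factor except IRF2, and the value of IRF3 against DMSO 3 and 4 is -0.07.

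With TMM scaling, the spread within DMSO followed the split of its libraries in every factor. DMSO 1 and 2 over DMSO 3 and 4 gave log2 ratios of mean CPM of -5.15 for IRF4, -3.22 for IRF2, 1.36 for IRF1, 1.54 for IRF8, 1.83 for IRF3 and 1.93 for IRF5. IRF4 and IRF2, the factors lower in DMSO 1 and 2, are those with the transcripts lowest in GC, 47.1% and 45.4%. The transcripts of the other 4 factors hold 52.0% (IRF8), 53.2% (IRF1), 57.7% (IRF5) and 61.2% (IRF3). The part of GC content in this split was not tested.

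Per kilobase of the counted interval, which runs from transcript start to end with its introns, IRF3 had the highest level in SY-351 (9.35 to 9.86 CPM per kb over the 4 libraries) and IRF4 the next (6.42 to 8.62 CPM per kb). IRF1 followed at 0.533 to 0.580, IRF5 at 0.444 to 0.514, IRF2 at 0.0555 to 0.0732 and IRF8 at 0.0416 to 0.0605 CPM per kb, and only the ranges of IRF2 and IRF8 overlapped between neighbours in this order. In DMSO the order was IRF3 (9.0 to 39.7 CPM per kb), IRF1 (2.18 to 7.83), IRF5 (0.663 to 3.02), IRF8 (0.118 to 0.396), IRF4 (0.00522 to 0.30) and IRF2 (0.0240 to 0.271). The ranges of IRF1 and IRF5, of IRF8 and IRF4 and of IRF4 and IRF2 overlapped there. IRF4 thus stood second of 6 in SY-351 by this measure and by spliced transcript length, whereas by the mean of all 4 DMSO libraries it stood at rank 5 by interval and rank 6 by spliced length. In DMSO 3 and 4 it stood at rank 4 by interval and rank 5 by spliced length, and in DMSO 1 and 2 at rank 6 by both. By spliced length IRF1 stood at rank 5 of 6 in SY-351, at rank 2 by the mean of all 4 DMSO libraries and in DMSO 1 and 2, and at rank 3 in DMSO 3 and 4, where IRF2 stood at rank 2.

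The nearest counted rows show whether the intervals around the members moved with them. DUSP22, a phosphatase gene 40395 bases upstream of IRF4 on the same strand, measured 32.8, 33.3, 36.6 and 32.4 CPM in SY-351, against 47.8, 54.6, 17.8 and 22.4 CPM in DMSO, and did not pass the test (log2 fold -0.08 ± 0.39 (SE), adjusted p = 0.904 by edgeR's quasi-likelihood test). Without DMSO 1 and 2 its log2 fold was 0.77 ± 0.16, against 4.65 for IRF4. EXOC2, an exocyst subunit gene 73709 bases downstream on the opposite strand, measured 24.9 to 26.1 CPM in SY-351 and 9.77 to 30.0 CPM in DMSO. On either side of IRF1, SLC22A5, a carnitine transporter gene, measured 4.53 to 5.54 CPM in SY-351 and 6.20 to 12 CPM in DMSO (adjusted p = 0.104), and the cytokine gene IL5 had 0 to 3 counts in SY-351 and 0 to 9 counts in DMSO. BCL2L12 overlaps IRF3 by 717 bases on the opposite strand. It measured 27.7, 33.3, 32.6 and 33.9 CPM in SY-351, against 109, 117, 33.0 and 43.9 CPM in DMSO, with DMSO 1 and 2 high and 3 and 4 near SY-351, as for IRF3. Whether the library kit kept strand is not given in the sources used here, so reads in the overlap may not be separable. COX4I1, upstream of IRF8 on the same strand and a subunit gene of cytochrome c oxidase, rose with a log2 fold of 1.88 ± 0.52 (SE, adjusted p = 0.0423), while IRF8 was lower. The call of COX4I1 ended without any single SY-351 library and also without DMSO 1 or DMSO 2, and without DMSO 1 and 2 together its log2 fold was 1.26. SCAF1, whose product binds the RNA polymerase II tail, lies 928 bases downstream of IRF3 on the opposite strand and fell, with a log2 fold of -4.34 ± 0.93 (adjusted p = 0.0187) over all 8 libraries and -1.77 ± 0.15 without DMSO 1 and 2, a call that ended without any single SY-351 library (adjusted p up to 0.0773). Of the other 4 neighbours, ENPP6, KCP and TNPO3 had no adjusted p below 0.05 over all 8 libraries. FOXF1, with 3 to 9 counts in each library, did not pass the filter on low counts and was not tested.

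The genes whose profile over the 8 libraries was most like that of IRF4 were found by the root mean square difference of centred log2 CPM, over 8226 genes with a mean of at least 10 CPM. KCNJ2, an inward-rectifier potassium channel gene, was closest at 0.26 log2 units, with a mean of 230 CPM in SY-351, 0.273 CPM in DMSO 1 and 2 and, in DMSO 3 and 4, 8.60 CPM. The next were MTRNR2L8 at 0.92, MTRNR2L10 at 0.97, CEACAM8, a granulocyte surface glycoprotein gene, at 1.00 and MTRNR2L4 at 1.00, while the median over all genes was 4.17. The 3 MTRNR2L genes are near-identical copies of a mitochondrial sequence, so their counts are uncertain. The genes most like IRF1 lay closer to it. HCCS, which encodes the enzyme that attaches haem to cytochrome c, lay at 0.10, TP53RK, a kinase gene of the KEOPS complex, at 0.11, DGAT2, a triglyceride synthesis gene, at 0.12, and MRFAP1 and LRRC42 at 0.13, against a median of 1.49. IRF5 lay at 0.67 and IRF3 at 0.99 from IRF1, and IRF4 at 5.54, rank 8224 of the 8226 genes compared.

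Markers of other blood cells that can express IRF4 or IRF8 were summed in each library. The 9 B cell markers summed to 22.4 to 27.8 CPM in SY-351, against 14.4 to 18.4 CPM in DMSO 1 and 2, while DMSO 3 and 4 gave 9.73 to 14.4 CPM, with BLK at 0 counts in all libraries. The largest of them in SY-351 was CD79A, at 14.5 to 15.9 CPM in SY-351 and 4.53 to 12.5 CPM in DMSO. CD79B did not follow it, at 0.0609 to 0.182 CPM in SY-351 and 0.17 to 0.367 CPM in DMSO. The 5 of 6 plasma cell markers with a row summed to 44.0 to 54.9 CPM in SY-351, against 176 to 196 CPM in DMSO 1 and 2, with DMSO 3 and 4 at 48.1 to 63.0 CPM. Most of that sum was MZB1. FKBP11 measured 7.23 to 11.3 CPM in SY-351, against 13.5 to 13.6 CPM in DMSO 1 and 2 and 3.43 to 5.02 CPM in DMSO 3 and 4. The 8 T cell markers summed to 4.87 to 6.53 CPM in SY-351 and 1.95 to 4.40 CPM in DMSO, with CD3D at no more than 0.113 CPM. The largest of them in SY-351 was CD3E, at 2.33 to 3.40 CPM in SY-351 and 0.162 to 2.03 CPM in DMSO. LCK did not follow it, at 0.0913 to 0.158 CPM in SY-351 and 0.085 to 0.485 CPM in DMSO. The 10 monocyte and dendritic cell markers summed to 550 to 625 CPM in SY-351, against 75.2 to 79.5 CPM in DMSO 1 and 2, while DMSO 3 and 4 gave 149 to 200 CPM. In SY-351 and in DMSO 3 and 4 most of that sum was S100A8, a calgranulin gene, and CSF1R, the macrophage growth factor receptor gene. In DMSO 1 and 2 most of it was CD14, the monocyte co-receptor gene, which measured 1.28 to 1.57 CPM in SY-351, against 57.5 to 61.8 CPM in DMSO 1 and 2, with DMSO 3 and 4 at 6.43 to 8.95 CPM. The part of these markers in the levels of the factors was not tested.

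Splicing was compared in the authors' deposited table, which gives the expected inclusion of each junction or intron of a local splicing variation (the competing ways to splice from or into 1 exon) and a posterior probability that the difference exceeds 0.2. It holds 1 value per group, with no SD or n. The sign is given here as SY-351 minus control. Of 6716 variations in 3700 genes, 55.7% had a probability of at least 0.95 in the authors' deposited table, and of the 3 factors listed there 1 did (IRF7).

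The last intron of IRF1 is shown because the authors' deposited table lists it as retained more often in SY-351. It is intron 9 of the 10-exon transcript IRF1-201 in GENCODE, chr5:132484076-132484361 on the minus strand of GRCh38, 286 bases long, identified by its length. It lies between coding exons, and its length leaves a remainder of 1 when divided by 3. Capitals mark the splice donor and acceptor dinucleotides.
IRF1 intron 9: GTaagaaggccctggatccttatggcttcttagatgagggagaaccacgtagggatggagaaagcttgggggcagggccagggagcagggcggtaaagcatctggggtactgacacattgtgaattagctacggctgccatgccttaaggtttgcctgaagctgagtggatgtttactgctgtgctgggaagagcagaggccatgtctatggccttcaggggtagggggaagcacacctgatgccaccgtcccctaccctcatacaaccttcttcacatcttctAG
In the authors' deposited table its retention was 25.3% in SY-351 against 1.6% in control, and its splice junction was used at 74.4% in SY-351 against 96.2% in control. The difference of 23.3 percentage points had a probability of 0.716, below 0.95. Of 1221 intron entries in the authors' deposited table, 38% had a higher inclusion in SY-351, and 15.0% had a difference at or above that of this intron. The counts of IRF1 include introns, so reads of such RNA are part of its level above.

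IRF7, the inducible amplifier of interferon production, had the variation past the probability. The exon concerned is exon 5 of the 10-exon transcript IRF7-201, chr11:614174-614399 on the minus strand of GRCh38, 226 bases long, also found by lengths, and it leaves a remainder of 1 when divided by 3. It is printed as the sequence that is skipped, with its first and last 3 bases in capitals.
IRF7 exon 5: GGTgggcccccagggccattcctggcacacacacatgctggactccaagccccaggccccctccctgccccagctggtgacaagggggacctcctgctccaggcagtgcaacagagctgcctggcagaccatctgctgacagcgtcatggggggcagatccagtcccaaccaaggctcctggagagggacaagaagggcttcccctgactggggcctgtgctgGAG
In the authors' deposited table, the junction into this exon was used at 38.5% in SY-351 against 75.8% in control (probability 0.983). The junction that skips it, over 438 bases, was used at 60.6% in SY-351 against 22.0% in control (probability 0.99) in the same deposited table. In GENCODE the skipping junction occurs only in 3 transcripts, all annotated as nonsense-mediated decay targets.

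For IRF3, the authors' deposited table lists 8 junctions into 1 exon. The junction annotated in 7 coding transcripts was used at 59.6% in SY-351 against 79.0% in control (probability 0.464 in the authors' deposited table). A shorter junction, found in GENCODE only in 1 transcript, annotated as a nonsense-mediated decay target, was used at 17.7% in SY-351 against 2.1% in control in the authors' deposited table, with a probability of 0.0666. Neither difference passed 0.95.

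**Figure D4:**
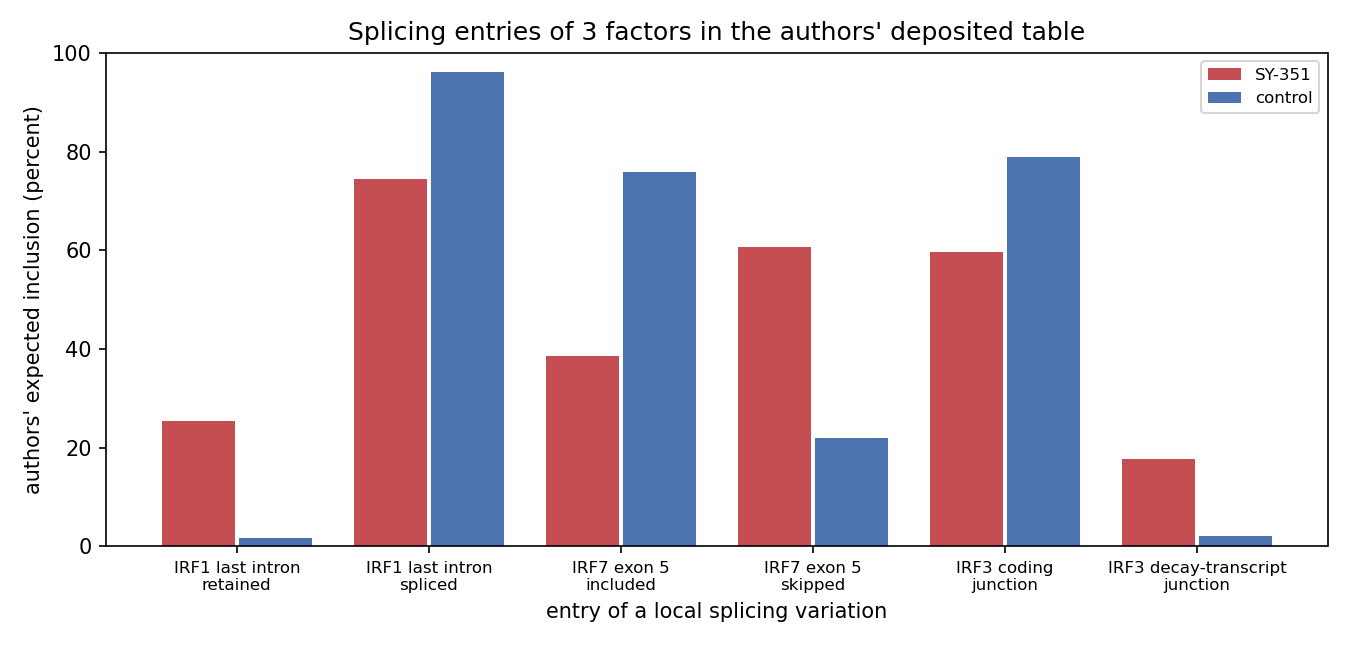
Expected inclusion in percent from the authors' deposited table for 2 entries each of IRF1, IRF7 and IRF3, SY-351 left of control, with no error available. Of these, the IRF7 entries have a probability of at least 0.95 (38.5% against 75.8% included, 60.6% against 22.0% skipped).

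The pathway upstream of the factors was tested as a list of 52 genes, of which 48 passed the filter on low counts. It holds receptors, kinases, adaptors and regulators, both activators and inhibitors of signalling. SOCS1, SOCS3, PTPN6 and TNFAIP3 are among the inhibitors, so a lower count is not a count of activators alone. Over all 8 libraries 11 of the 48 (22.9%) fell and 0 rose by edgeR's quasi-likelihood test, where 13.6% of all genes fell and 2.91% rose. At an unadjusted p below 0.05, 1 was higher, and DESeq2 called 0 higher. The lower count was 4 without SY-351 replicate 1 or 3 and 6 without SY-351 replicate 2 or 4, and 1 gene rose without DMSO 4. Without DMSO 1 and 2, 23 of 48 fell and 6 rose, with all 11 among the 23, where 26.4% fell and 21.9% rose. PTPN6, the phosphatase SHP-1 that dampens cytokine receptors, averaged 73.7 ± 4.46 CPM in SY-351 and 295 ± 43 CPM in DMSO (SD, n = 4 each), a log2 fold of -2.0 ± 0.26 (SE, adjusted p = 0.00442). MYD88, the adaptor of most Toll-like receptors, averaged 9.38 ± 0.285 CPM in SY-351 and 35.1 ± 9.18 CPM in DMSO, a log2 fold of -1.90 ± 0.28 (adjusted p = 0.00634). TIRAP, which brings MYD88 to the membrane, had a log2 fold of -2.15 ± 0.32 (adjusted p = 0.00669), and TLR9, the endosomal sensor of unmethylated DNA, a log2 fold of -4.56 ± 0.71 (adjusted p = 0.00743), which was -2.86 ± 0.17 without DMSO 1 and 2. The groups did not overlap for any of these 4 genes. IRAK1, the kinase downstream of MYD88, and UNC93B1, the chaperone of endosomal Toll-like receptors, had the highest levels of the list and did not pass, and both changed sign with the controls. IRAK1 measured -0.54 ± 0.61 (adjusted p = 0.568) over all 8 libraries and 0.99 ± 0.17 without DMSO 1 and 2, and UNC93B1 -1.68 ± 0.73 (adjusted p = 0.157) and 0.42 ± 0.16. The median log2 fold of the list was -0.33 over all 8 libraries and also without DMSO 1 and 2, against 0.00 and 0.01 over all genes.

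Targets were read from a list of 89 interferon-stimulated genes, of which 67 passed the filter. Over all 8 libraries 7 of the 67 (10.4%) fell and 3 rose (4.48%), where 13.6% of all genes fell and 2.91% rose, so the shares lay near the background. IFIH1, the cytosolic RNA sensor MDA5, averaged 5.75 ± 0.634 CPM in SY-351 and 30.7 ± 10.4 CPM in DMSO (SD, n = 4 each), with a log2 fold of -2.41 ± 0.33 (SE, adjusted p = 0.0049 by edgeR). DTX3L, a ubiquitin ligase that pairs with PARP9, had a log2 fold of -1.82 ± 0.31 (adjusted p = 0.00867), IFIT5, an RNA-binding antiviral protein, of -1.81 ± 0.32 (adjusted p = 0.00994) and PML, the scaffold of nuclear bodies, of -3.23 ± 0.69 (adjusted p = 0.0187). The PML log2 fold was -1.44 ± 0.15 without DMSO 1 and 2, and its call ended without any single SY-351 library, those of DTX3L and IFIT5 without SY-351 replicate 1 or 3. IFIT5 rested on 0.141 ± 0.030 CPM in SY-351 and 0.495 ± 0.103 CPM in DMSO. The 3 genes that rose were BST2 (tetherin), IL18BP (the decoy receptor of interleukin 18) and IDO1 (a tryptophan-degrading enzyme), named after their values were seen. Their log2 folds were 1.38 ± 0.30, 1.20 ± 0.28 and 1.21 ± 0.31, all calls that ended without any single SY-351 library, and IDO1 no longer passed without DMSO 1 and 2. ADAR, the RNA editing enzyme and by level among the highest of the list, measured 0.56 ± 0.56 (adjusted p = 0.517) over all 8 libraries and -0.12 ± 0.16 without DMSO 1 and 2. Without DMSO 1 and 2, 27 of 70 fell (38.6%, against 26.4% of all genes) and 8 rose (11.4%, against 21.9%), and the median log2 fold of the list was -0.39, against 0.00 over all 8 libraries. The counts of this list depended on single libraries, with 1 lower without SY-351 replicate 1 or 3, 3 lower without SY-351 replicate 2 or 4, 4 lower without DMSO 1, 0 higher without any single SY-351 library, 1 higher without DMSO 1 and 5 higher without DMSO 3.

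Partners of the factors and lymphoid and myeloid targets of IRF4 and IRF8 formed a list of 43 genes, all of which passed the filter. MYD88, described above, is in this list and in the signalling list and is counted as lower in both. Over all 8 libraries 14 of the 43 (32.6%) fell and 0 rose by edgeR, where 13.6% of all genes fell and 2.91% rose. At an unadjusted p below 0.05, 1 was higher, and DESeq2 called 2 higher. The lower count was 5 without SY-351 replicate 1, 4 without SY-351 replicate 2, 3 or 4 and 22 without DMSO 3, and 2 rose without DMSO 3 and 1 without DMSO 4. Without DMSO 1 and 2, 15 fell (34.9%) and 8 rose (18.6%), where 26.4% and 21.9% of all genes did, and all 14 were among the 15. PRDM1, which encodes the plasma cell regulator BLIMP1 and is an activation target of IRF4 in lymphocytes, measured 0.922, 0.472, 0.837 and 0.856 CPM in SY-351, against 6.28, 6.33, 4.39 and 4.94 CPM in DMSO. No SY-351 value reached the DMSO range, and the log2 fold was -2.83 ± 0.34 (SE, adjusted p = 0.00324). XBP1, the secretory pathway regulator of plasma cells, had a log2 fold of -5.07 ± 0.61 (adjusted p = 0.00334), which was -3.88 ± 0.16 without DMSO 1 and 2. MYC, a direct target of IRF4 in myeloma, averaged 121 ± 11 CPM in SY-351 and 3670 ± 2760 CPM in DMSO (SD, n = 4 each), a log2 fold of -4.93 ± 0.74 (adjusted p = 0.00699) over all 8 libraries and -3.38 ± 0.16 without DMSO 1 and 2. PRDM1, XBP1 and MYC were thus lower in the same libraries in which IRF4 was higher. Other genes of the list went the other way. CTSS, CYBB and CSF1R, named after their values were seen, lay above every DMSO library in SY-351. Their log2 folds were 1.35 ± 0.17, 0.93 ± 0.17 and 1.54 ± 0.17 without DMSO 1 and 2, and none of them passed over all 8 libraries. SPI1, which encodes the IRF4 and IRF8 partner PU.1, measured 313, 297, 287 and 284 CPM in SY-351, against 2620, 2690, 272 and 345 CPM in DMSO, and did not pass (log2 fold -2.33 ± 0.81, adjusted p = 0.0855). It was level with DMSO 3 and 4 (-0.04 ± 0.16). The 3 genes of the IRF2-binding protein family were picked out after their values were seen, and all fell. IRF2BP1 had a log2 fold of -4.90 ± 0.95, IRF2BP2 of -3.18 ± 0.67 and IRF2BPL of -3.32 ± 0.90. Their calls ended without any single SY-351 library (adjusted p up to 0.126). Without DMSO 1 and 2 these were -2.29 ± 0.15, -1.60 ± 0.15 and -0.62 ± 0.18. The median log2 fold of the list was -0.95 over all 8 libraries and -0.26 without DMSO 1 and 2. The monocyte and dendritic cell marker sums given above moved with the groups, and their part in the 3 list counts was not tested.

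**Figure D5:**
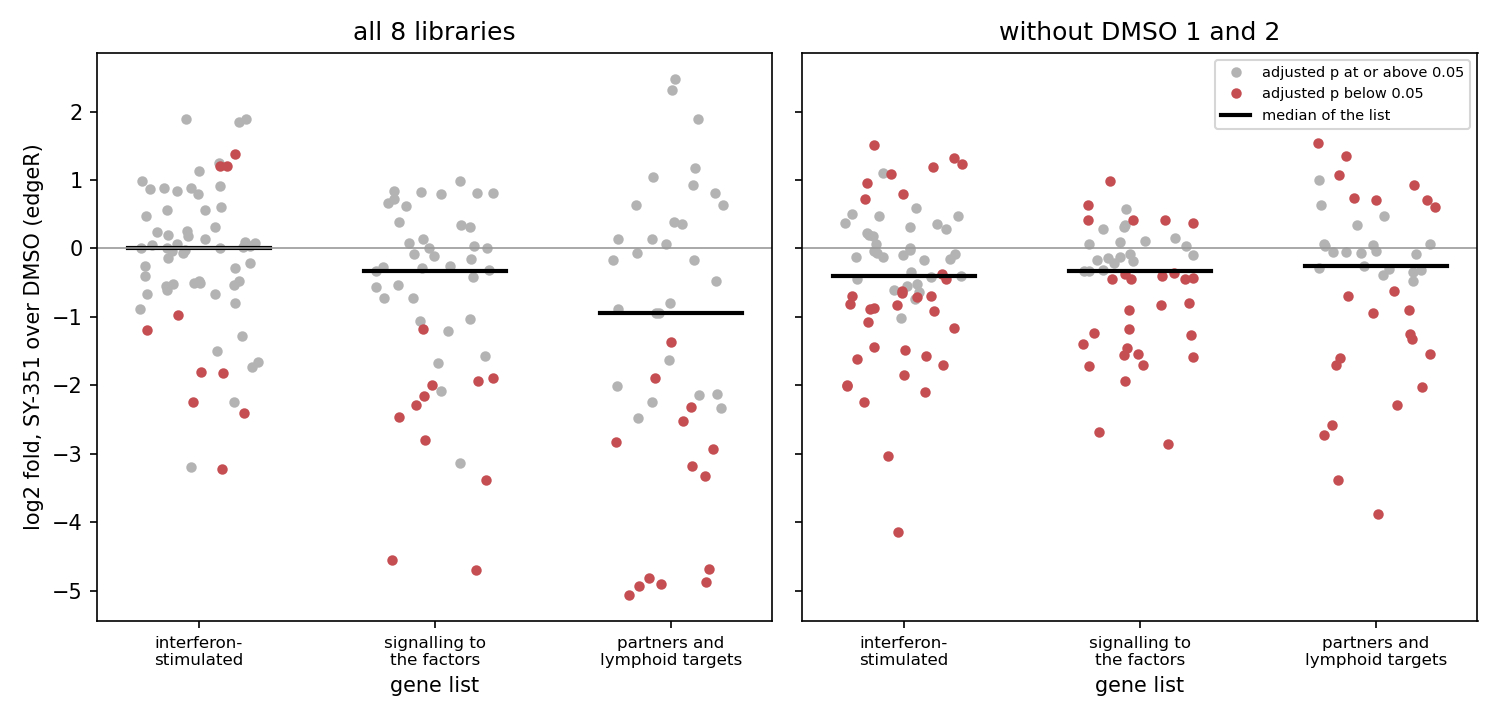
Log2 fold of SY-351 over DMSO (edgeR) for each tested gene of the 3 lists, over all 8 libraries (left) and without DMSO 1 and 2 (right), red where the adjusted p is below 0.05, with a bar at the list median. The medians are 0.00, -0.33 and -0.95 over all 8 libraries and -0.39, -0.33 and -0.26 without DMSO 1 and 2.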

How the data were processed

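Per the labels' protocols, TRIzol-extracted HL60 RNA was enriched for poly(A) and prepared with a TruSeq kit of Illumina. The authors deposited whole-number read counts for 18093 RefSeq transcripts, counted with featureCounts 1.6.2 at strand setting 1 over 1 interval from start to end of each, per the file headers. Per the submitters' processing notes, the build was GRCh38. How the 2 technical repeats entered a column is not given in the sources used here, and since nothing says the replicates came from separate cultures, the p-values cover spread between libraries only, which may be technical.

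The second deposited table holds the authors' expected inclusion as a fraction, the difference in inclusion and the posterior probability of it, also a fraction, with MAJIQ and Voila column names per the file headers. Its difference is control minus SY-351 and was turned round. It uses another build, so its exons and introns were matched to GENCODE v29 by length. Which libraries entered it is not given in the sources used here.

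Identifiers were matched to symbols through RefSeq (17867 rows) and GENCODE (134 rows), and 13 rows with a shared symbol were set aside. CPM are TMM-scaled. Counts of all genes were fitted with edgeR 4.0.16 in R 4.3.3 (filterByExpr, robust quasi-likelihood test, two-sided, Benjamini-Hochberg adjusted p below 0.05, group as the only term, 8 libraries), tested on simulated counts first. The simulated counts took their spread from the libraries without DMSO 1 and 2, so they do not show how the fit behaves under the split within DMSO. The SE comes from the F statistic (absolute log2 fold over the root of F). Alternatives were DESeq2 1.42.0, other scaling, no filter, a replicate block and leaving out libraries. The members, lists and rules were chosen with earlier results of these data known. Genes named are the members, the 4 smallest adjusted p and 2 highest levels of each list, the 5 profiles most like IRF4 and IRF1, and each member's nearest counted rows, of which 1 is not reported here. Depth was 43266228 to 124242039 counts, so 3 counts equal at most 0.0693 CPM in the shallowest library.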

Additional observations from a re-analysis of the deposited data

Results flagged for a closer look

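In 64 groups of 4 libraries examined (31 genes and the ratio of IRF4 to IRF1, in SY-351 and in DMSO), 4 had 1 library far from the other 3. Chance gives about 1 in 20 such groups if they are independent. All 4 were SY-351 groups, and in DMSO the split of its libraries leaves little room for such a gap. The groups also share libraries, so nothing is read from the rate. IRF1 measured 5.31 CPM in SY-351 replicate 1, with replicates 2 to 4 at 4.89 to 4.95 CPM, a gap that is small beside the distance to DMSO. IRAK1, the kinase downstream of MYD88, measured 772 CPM in SY-351 replicate 1 with replicates 2 to 4 at 694 to 703 CPM. MTRNR2L8 measured 385 CPM in SY-351 replicate 4 with replicates 1 to 3 at 227 to 233 CPM, and MTRNR2L4 measured 29.8 CPM in SY-351 replicate 4 and 18.6 to 19.2 CPM in the others. Both are near-identical copies, and SY-351 replicate 4 was also the library with the highest IRF4 level, 170 CPM, and the fewest counts, 43266228.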

How the results depend on the processing

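The log2 folds kept their sign under all alternatives for IRF1, IRF3, IRF4, IRF5 and IRF8. IRF1 was -2.25 without DMSO 1 and 2 (-2.25 also with RLE scaling in addition, and -2.67 with total count scaling, both chosen after seeing the data) and -3.77 against DMSO 1 and 2 alone. IRF4 was 9.61 against DMSO 1 and 2 alone. IRF2 reached 1.12 there. Leaving out 1 library at a time gave -3.31 to -2.75 for IRF1 and 5.18 to 6.16 for IRF4. With RLE size factors the median gene measured -0.11, and with DESeq2 -0.13.

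Interferon-stimulated genes lower numbered 11 with DESeq2, 27 without DMSO 1 and 2 and 17 against DMSO 1 and 2 alone, and 1 to 9 when 1 library was left out. Those higher numbered 5 with DESeq2, 0 with total count scaling, 8 without DMSO 1 and 2 and 36 against DMSO 1 and 2 alone, and 0 to 5 when 1 library was left out. Signalling genes lower numbered 17 with DESeq2, 23 without DMSO 1 and 2 and 27 against them alone, and 4 to 16 with 1 library left out. Those higher numbered 6 without DMSO 1 and 2 and 13 against them alone, and 0 to 1 with 1 library left out. Partners and targets lower numbered 26 against DMSO 1 and 2 alone and 4 to 22 with 1 library left out. Those higher numbered 2 with DESeq2, 8 without DMSO 1 and 2 and 10 against them alone, and 0 to 2 with 1 library left out. The cause was not tested.

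With the replicate number as a block, each of the lower counts and the count of higher interferon-stimulated genes was 0 (edgeR, with 7, 12 and 14 lower and 5 higher at an unadjusted p below 0.05), IRF1 was -2.93 and IRF4 7.11, and 0 of the 6 factors kept an adjusted p below 0.05. Deviations from the group mean had correlations of -0.176 to 0.00641 between same-numbered libraries and -0.0441 to 0.117 between differently numbered ones. In DMSO these deviations follow the split of its libraries, so this check cannot decide whether the numbers pair the samples. Of 225 values recomputed for the 15 list genes named by rule, 195 kept their side of the threshold, 19 lost it, 11 gained it and 0 of the called ones changed sign. Among those that gained it, IRAK1 and UNC93B1 passed without DMSO 1 and 2 with the opposite sign. List genes named after their values were seen are not among the 15. IRF7 alone of the factors passed a splicing probability of 0.90, 0.95 and 0.99. Depth limits IRF4 in DMSO 1 and 2 most, with 16 and 7 counts.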

Other observations

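Splicing of the genes around the factors was listed in the authors' deposited table for part of each list. Of 16 signalling genes with a variation, 11 had one with a probability of at least 0.95, namely IFNAR2, IRAK4, NLRX1, PIAS1, PTPN2, PTPN6, SOCS1, STAT2, TBK1, TLR4 and TNFAIP3. Of 11 interferon-stimulated genes with a variation in the authors' deposited table, 5 did, among them IL18BP, NLRC5, TRIM22 and TRIM5, and of 7 partners and targets, 4 did (IKZF1, IKZF2, IRF2BP2 and SUB1). Over all genes of the authors' deposited table, 2375 of 3700 did. TBK1, the kinase that phosphorylates IRF3 and IRF7, and STAT2, the partner of IRF9, are among the signalling genes listed.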
